A study of Mus musculus with 6 samples.

Results

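Genes of the major histocompatibility complex (MHC) class I and class II pathways were examined in brain RNA of Pla2g2e-/- mice, called KO below, and wild-type mice, called WT. All spots whose gene name in the array files was one of 10 listed genes were taken, control spots excluded. This gave 24 spots of 15 probes, out of 39429 probes on the array, and 10 genes out of 23999 that could be tested. The 6 class II pathway genes were H2-Aa, H2-Ab1, H2-Eb1, Cd74, H2-DMa and Ciita, and the 4 class I genes were H2-K1, H2-D1, H2-T23 and B2m. Each group held 3 samples of male brain on the C57BL/6N background, with 1 sample per 1-colour Agilent array. Pla2g2e encodes a secreted phospholipase A2. Titles and descriptions name all 6 samples as sham-operated, whereas the treatment text shared by all 6 speaks of brain ischemia, with the middle cerebral artery blocked for 60 min, so the state of the tissue is not settled by the labels. Age, brain region, perfusion and the deleted part of Pla2g2e are not given in the sources used here. No label says whether each sample was a different animal, and the p-values below therefore reflect sample-to-sample spread that may be purely technical.

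MHC class II molecules are pairs of an alpha and a beta chain that present peptides from endocytosed proteins to CD4 T cells. Their chains are escorted by the invariant chain Cd74, their peptides are exchanged by H2-DM, and their transcription depends on the coactivator Ciita. In healthy brain they are known from macrophages, dendritic cells and other leukocytes of the meninges, choroid plexus and perivascular spaces, while resting microglia make little of them. MHC class I molecules present peptides from the cytosol to CD8 T cells and consist of a heavy chain bound to beta-2 microglobulin, the product of B2m. They are made by most nucleated cells, and their transcription is driven by Nlrc5, a relative of Ciita.

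Class I and class II promoters are known to share a module of short boxes, among them an X2 box bound by CREB-type factors and a Y box bound by NF-Y. RefSeq promoter windows (GRCm38.p6, 250 bases before to 50 bases after the start of the gene) were at hand for 7 of the 10 genes, namely H2-Aa, H2-Eb1, H2-DMa, H2-K1, H2-D1, H2-T23 and B2m. The letters TGANG followed after 19 to 21 bases by ATTGG, chosen after these windows had been looked at, were present in 5 of the 7 genes, and not in the windows of H2-DMa or H2-T23. Over both strands the same pair of letters occurred in 311 of 32851 promoter windows (0.947%), whereas ATTGG alone occurred in 37.4% and TGANG alone in 89.4%. A match of letters is a description and not a site. The stretches below are shown because H2-Aa and H2-Eb1 varied strongly between arrays while H2-D1 and B2m did not, although all 4 carry the pair. They run 5′ to 3′ on the strand of the gene and the capitals mark the pair, at chr17:34287824-34287943 (minus strand) for H2-Aa, chr17:34305747-34305866 (plus strand) for H2-Eb1, chr17:35262974-35263093 (plus strand) for H2-D1 and chr2:122147567-122147686 (plus strand) for B2m.
H2-Aa: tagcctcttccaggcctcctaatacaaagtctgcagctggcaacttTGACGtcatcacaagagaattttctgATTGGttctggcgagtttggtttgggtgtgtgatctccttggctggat
H2-Eb1: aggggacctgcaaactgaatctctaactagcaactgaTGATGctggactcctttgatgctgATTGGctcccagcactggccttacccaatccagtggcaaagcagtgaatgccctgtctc
H2-D1: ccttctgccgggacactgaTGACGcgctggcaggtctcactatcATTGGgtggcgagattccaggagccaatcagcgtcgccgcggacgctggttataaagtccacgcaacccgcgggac
B2m: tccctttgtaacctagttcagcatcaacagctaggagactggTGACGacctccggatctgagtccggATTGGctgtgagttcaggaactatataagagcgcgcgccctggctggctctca
The first base of the TGANG letters lay 74 bases before the start of H2-Aa, 83 before H2-Eb1, 101 before H2-D1 and 78 before B2m.

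Values below are log2 of the processed signal minus the 75th percentile of that array, so 0 is a fairly bright signal on its array. They compare arrays for 1 probe and do not rank genes, since probes differ in brightness. On each array 82.0% to 85.3% of 43020 non-control spots were well above background and 0 were saturated. Spots marked as outliers numbered 314 on KO 2 and 530 on KO 3, against 68 to 98 on each of the other arrays. Log2 signals over all probes correlated between arrays at 0.992 to 0.997 within groups and at 0.989 to 0.996 between groups. KO 1 shared a slide with WT 1, WT 2 and WT 3, while KO 2 and KO 3 were on a slide of their own. The correlations followed the slide: KO 1 correlated at 0.994 to 0.996 with the WT arrays and at 0.992 with KO 2 and KO 3. WT 3 stood apart from the other arrays. It exceeded all 5 others by more than 1 on the log2 scale in 219 of 23999 genes (0.913%), against at most 14 genes for any other array. Both Pla2g2e probes were dim. The brighter read -7.11, -7.94 and -7.90 in KO, against -7.14, -7.31 and -6.73 in WT, a difference of -0.59 ± 0.27 (SE; Benjamini-Hochberg adjusted p = 0.441 over all probes, limma), and the other differed by 0.33 in the opposite direction, so neither checks the genotype labels. All 8 neuronal markers looked up were measured in this tissue labelled as brain, and Syt1, a synaptic vesicle protein gene, was bright on all 6 arrays (5.79 to 5.94).

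All 15 probes of the 10 MHC genes were well above background on all 6 arrays. No MHC gene passed limma's test between KO and WT (0 of 10 at an adjusted p under 0.05; over all genes 0% of 23999), 0 of 10 had an unadjusted p under 0.05 (12.5% of all genes), and in 0 of 10 did the KO and WT arrays fail to overlap (19.9% of all genes). What the class II genes showed was a spread among the WT arrays: H2-Aa, H2-Ab1, H2-Eb1 and Cd74 were highest on WT 3, next highest on WT 1 and lowest on WT 2, with all KO arrays between WT 1 and WT 2. By the brightest probe of each gene, the class I genes, H2-DMa and Ciita stayed within a far narrower range. The other Ciita probes ranged over 0.76 and 1.01, and the other H2-K1 probes over 0.61 and 0.28.

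H2-Aa encodes the alpha chain of the I-A molecule. Its probe (chr17:34421285-34421344 of mm9, minus strand) is printed because it is the dimmest of the 4 class II genes that varied: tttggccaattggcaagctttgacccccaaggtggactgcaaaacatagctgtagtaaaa. The exon under this and the other probes was not analysed here. H2-Aa read -5.72, -5.87 and -5.65 in KO, against -5.31, -6.01 and -4.11 in WT. All KO values lay inside the WT range, and WT 3 was 2.31-fold above the next highest array. The means were -5.75 ± 0.11 in KO and -5.14 ± 0.96 in WT (SD, n = 3 each), a difference of -0.61 ± 0.46 (SE) with limma's adjusted p = 0.606. The 95% confidence interval of the KO over WT ratio ran from 0.298 to 1.45.

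H2-Ab1 encodes the beta chain that pairs with H2-Aa, and 2 probes covered it. The brighter probe (chr17:34406305-34406363, plus strand) read -1.80, -1.95 and -1.85 in KO, against -1.43, -2.25 and -0.23 in WT. WT 3 was 2.29-fold above the next highest array and 4.04-fold above WT 2. The second probe (chr17:34406296-34406355) read -1.89, -2.03 and -1.92 in KO, against -1.55, -2.19 and -0.26 in WT. It overlaps the first in 51 bases with 1 differing base, so the 2 are not independent, and their readings were 0.02 to 0.12 apart on each array. The difference of the brighter probe was -0.56 ± 0.49 (SE; adjusted p = 0.648, limma), with means of -1.87 ± 0.08 in KO and -1.30 ± 1.01 in WT (SD, n = 3 each).

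H2-Eb1 encodes the beta chain of the I-E molecule. Its probe (chr17:34453075-34453134, plus strand) read -1.43, -1.66 and -1.59 in KO, against -1.29, -1.81 and 0.08 in WT. WT 3 was 2.58-fold above the next highest array. The means were -1.56 ± 0.12 in KO and -1.01 ± 0.98 in WT (SD, n = 3 each), which differed by -0.55 ± 0.47 (SE; adjusted p = 0.645, limma). H2-Ea, the alpha chain gene of I-E, which C57BL/6 mice are known not to express, was well above background on 0 of 6 arrays.

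Cd74, the invariant chain that escorts new class II molecules and holds their groove closed, lies on another chromosome (its probe at chr18:60972075-60972132) and followed the same order of arrays. It read -2.73, -2.95 and -2.93 in KO, against -2.45, -3.24 and -1.32 in WT. WT 3 was 2.18-fold above the next highest array and 3.79-fold above WT 2. The difference was -0.53 ± 0.47 (SE; adjusted p = 0.651, limma).

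Centred on their own means, H2-Aa, H2-Ab1, H2-Eb1 and Cd74 lay within 0.15 of each other on KO 1, 0.07 on KO 2, 0.12 on KO 3, 0.16 on WT 1, 0.13 on WT 2 and 0.08 on WT 3. The gap between WT 3 and the next array, 1.13 to 1.37 for the 4 genes, was thus several times the disagreement between the genes on any array. Their ranges over the 6 arrays, 1.89 to 2.01, lay at percentiles 97.2 to 97.8 of all genes tested, whose median range was 0.38. The SD among WT arrays was 8.03 to 12.9 times the SD among KO arrays for these 4 genes, beside a median ratio of 1.39 over all genes, and 9.5% of all genes had a ratio above 5. H2-DMa had the highest ratio of the 10 genes, 24.3, with SDs of 0.0073 in KO and 0.18 in WT. The 4 genes were noticed for this pattern in these arrays, so it is a description with no test. In bulk tissue, fewer cells of a type and less RNA per cell cannot be told apart.

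**Figure D1:**
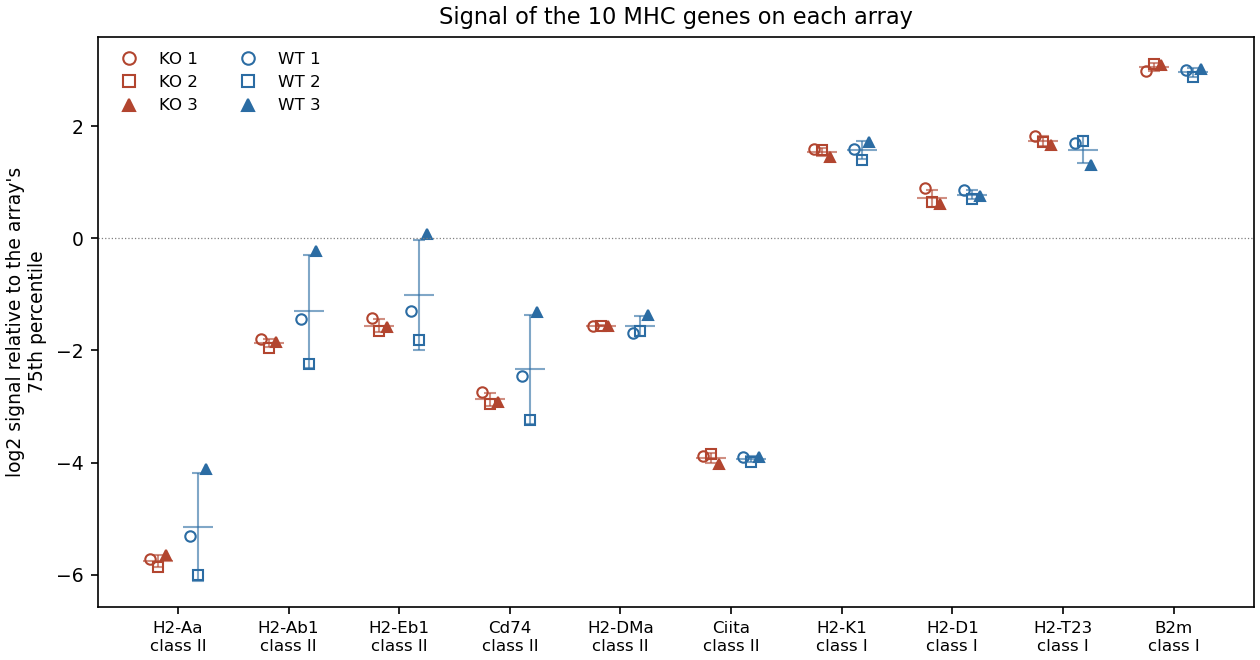
Log2 signal minus the 75th percentile of its array (y axis) for the 10 MHC genes (x axis), with KO arrays in red left of WT arrays in blue; symbols are single arrays, and bars are the mean and SD of 3 arrays. Heights compare arrays within a gene and not genes with each other; WT 3 is the highest array for H2-Aa, H2-Ab1, H2-Eb1 and Cd74, and KO values lie inside the WT range there.

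H2-DMa, a chain of the molecule that exchanges class II peptides in endosomes, did not share the pattern. Its probe (chr17:34274300-34274863, plus strand, an interval longer than the 60 bases of the probe) read -1.56, -1.57 and -1.56 in KO, against -1.68, -1.66 and -1.36 in WT. WT 3 was again the highest array, but by 0.19 only. The difference between KO and WT was 0.01 ± 0.10 (SE; adjusted p = 0.984, limma) with a 95% confidence interval of -0.24 to 0.25.

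Ciita, the coactivator that switches on class II transcription, was measured by 3 probes that disagreed. The brightest (chr16:10491091-10491150, plus strand) read -3.88, -3.85 and -4.02 in KO, against -3.89, -4.00 and -3.90 in WT, a difference of 0.02 ± 0.07 (SE; adjusted p = 0.938, limma). The probe at chr16:10492271-10492327 read -7.37, -7.76 and -7.58 in KO, against -7.10, -7.49 and -7.01 in WT, a difference of -0.37 ± 0.16 (SE; adjusted p = 0.429 over all probes, limma). The probe at chr16:10526568-10526627 read -7.80, -6.88 and -7.02 in KO, against -7.60, -7.82 and -7.89 in WT, a difference of 0.54 ± 0.25 (SE; adjusted p = 0.445 over all probes, limma). The last 2 were dim, with processed intensities of 8.67 to 17.8, and the last read higher on the 2 KO arrays of the second slide than on the 4 arrays of the first, including KO 1. On WT 3 none of the 3 probes stood above the next array by more than 0.09.

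**Figure D2:**
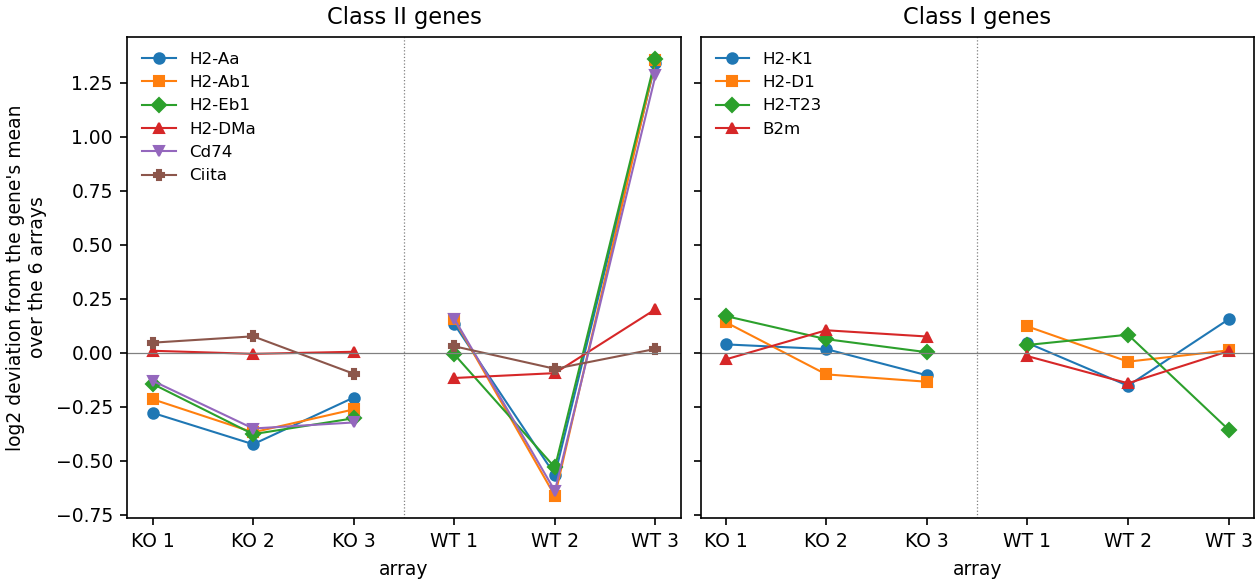
Log2 deviation of each MHC gene from its own mean over the 6 arrays (y axis) on each array (x axis), with class II genes on the left, class I genes on the right and KO arrays left of WT arrays. H2-Aa, H2-Ab1, H2-Eb1 and Cd74 run together, peaking on WT 3 and lowest on WT 2, while H2-DMa, Ciita and the class I genes stay near 0.

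H2-K1, a classical class I heavy chain, was the gene measured with most spots. Its 10-spot probe (chr17:34133055-34133114, minus strand) read 1.59, 1.57 and 1.45 in KO, against 1.60, 1.40 and 1.71 in WT, and its spots had a coefficient of variation of 2.14% to 3.85% within an array. The groups overlapped, with a difference of -0.03 ± 0.10 (SE; adjusted p = 0.907, limma) and a 95% confidence interval of -0.27 to 0.21. Its other probes differed by 0.10 (chr17:34133984-34134043) and by -0.16 (no position in the files).

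H2-D1, the second classical heavy chain of this strain, was read by 1 probe (chr17:35403886-35403945, plus strand). It gave 0.89, 0.65 and 0.61 in KO, against 0.87, 0.70 and 0.76 in WT. The difference of -0.06 ± 0.10 (SE) did not pass the test (adjusted p = 0.809, limma). On the slide with both genotypes KO 1 was 0.11 above the mean of the 3 WT arrays, and without KO 1 the difference was -0.15, so the direction was not settled.

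H2-T23 encodes Qa-1, a non-classical heavy chain that is recognised by inhibitory receptors of NK cells. Its probe (chr17:36167338-36167574, minus strand) read 1.83, 1.72 and 1.66 in KO, against 1.69, 1.74 and 1.30 in WT. WT 3, the highest array for the class II chains, was the lowest array here. The difference was 0.16 ± 0.13 (SE; adjusted p = 0.638, limma), and 0.02 without WT 3. Class I heavy chains are near-copies of each other, which limits what a 60-base probe can tell apart. The H2-T23 probe shares a run of 29 bases with the dimmer mapped H2-K1 probe, in capitals here because it is the longest run that any probe of H2-K1, H2-D1, H2-T23 or B2m shared with a class I probe of another gene looked up.
H2-K1: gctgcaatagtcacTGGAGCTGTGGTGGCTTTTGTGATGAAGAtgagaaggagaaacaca
H2-T23: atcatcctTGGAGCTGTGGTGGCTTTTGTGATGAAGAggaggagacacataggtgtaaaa
Both probes were highest on KO 1 and lowest on WT 3: the H2-K1 probe read 0.47, 0.32 and 0.23 in KO, against 0.24, 0.29 and 0.19 in WT. H2-Q2, H2-Q8, H2-Q10 and H2-M2 were also highest on KO 1 and lowest on WT 3, but H2-Q4, H2-Q6 and H2-Q7 were not. Whether the 2 probes read each other's RNA was not tested. The probes of B2m and the 10-spot probe of H2-K1 shared at most 10 and 8 bases with a class I probe of another gene looked up.

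B2m, the light chain needed by nearly all class I molecules at the surface, read 2.98, 3.11 and 3.09 in KO, against 2.99, 2.87 and 3.02 in WT (chr2:121978401-121978460, plus strand). KO 2 and KO 3 were the 2 highest arrays and lay on the slide without WT arrays, while KO 1 lay inside the WT range. The means were 3.06 ± 0.07 in KO and 2.96 ± 0.08 in WT (SD, n = 3 each). The difference was 0.10 ± 0.07 (SE; adjusted p = 0.597, limma), and 0.02 on the slide with both genotypes.

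The median difference between KO and WT was -0.54 over the 6 class II genes and 0.03 over the 4 class I genes, beside -0.01 over all 23999 genes tested. The means were lower in KO for 4 of 6 class II genes and 2 of 4 class I genes (53.8% of all genes). The class II value rested on the WT arrays taken. Without WT 3 the differences were -0.09 for H2-Aa, -0.03 for H2-Ab1, -0.01 for H2-Eb1 and -0.03 for Cd74, and the class II median was -0.02. Without WT 2 the class II median was -0.97, with -1.04 for H2-Aa (adjusted p = 0.307, limma), -1.03 for H2-Ab1 (adjusted p = 0.304), -0.95 for H2-Eb1 (adjusted p = 0.381) and -0.99 for Cd74 (adjusted p = 0.304). The unadjusted 95% confidence intervals then left out 0 for H2-Aa, H2-Ab1 and Cd74, with upper bounds of -0.090, -0.100 and -0.097. In that setting 3526 of 23999 genes had an unadjusted p under 0.05 with limma. WT 2 was the lowest array for these genes, so leaving it out by itself widens their difference. Within the slide that held both genotypes, KO 1 differed from the 3 WT arrays by -0.58 for H2-Aa, -0.50 for H2-Ab1, -0.42 for H2-Eb1 and -0.40 for Cd74, with intervals that reached from -2.80 to 1.81 for H2-Ab1. With another background correction (normexp) the difference of dim H2-Aa was -0.36.

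**Figure D3:**
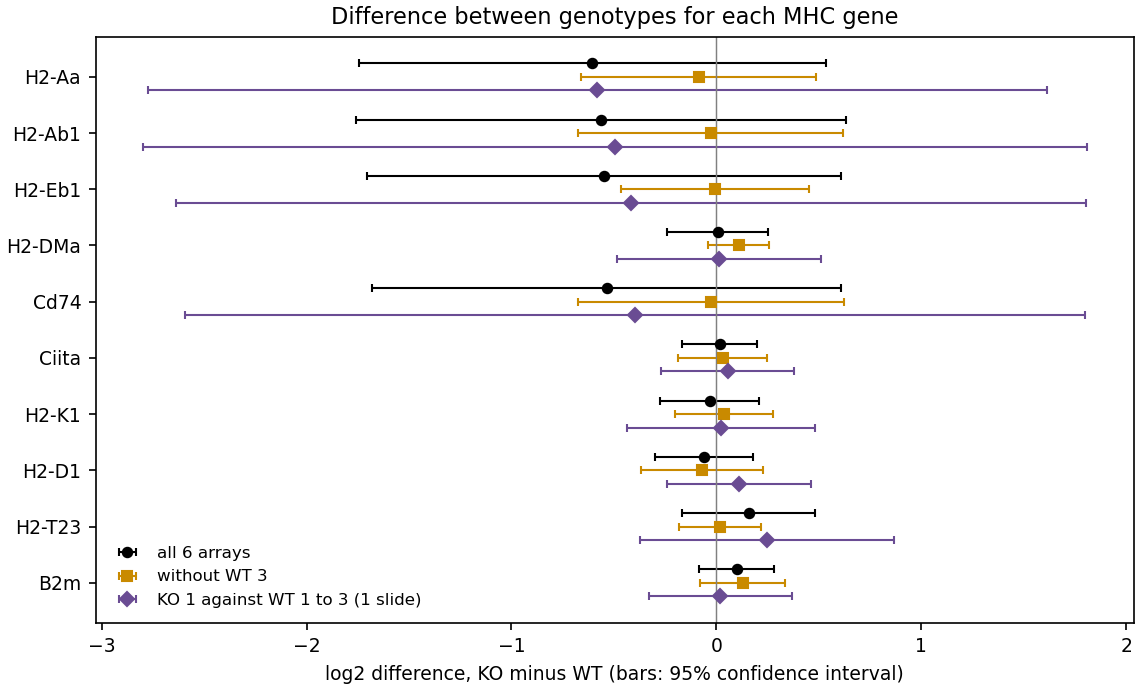
Log2 difference, KO minus WT (x axis), of each MHC gene with its 95% confidence interval, from all 6 arrays, without WT 3, and from the slide that held KO 1 and all WT arrays. The intervals of the class II chains and Cd74 span 0 in each setting drawn, and their differences are near 0 without WT 3.

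The other tested class II genes ranged less over the arrays than H2-Aa, H2-Ab1, H2-Eb1 and Cd74. Of 6 class II genes outside the 10 that were on the array, 3 were tested and 0 passed limma's adjusted test. H2-DMb1, the partner chain of H2-DMa, read -2.15, -2.02 and -1.98 in KO, against -1.99, -2.32 and -1.69 in WT. H2-Oa and H2-Ob, which form a modulator of H2-DM, differed by -0.07 and 0.26. H2-Ea, H2-Eb2 and H2-DMb2 were well above background on 0 of 6 arrays. Among 11 genes of class II processing and costimulation 0 passed the adjusted test, and their median difference was -0.04. Ctss, the protease that trims Cd74 in antigen-presenting cells, read 3.40, 3.43 and 3.41 in KO, against 3.11, 3.17 and 3.27 in WT. Its groups did not overlap, and its difference of 0.23 ± 0.07 (SE) had an adjusted p of 0.302 (limma). Cd80, a costimulatory ligand named after its values were seen, read -2.95, -2.95 and -2.98 in KO, against -2.58, -2.77 and -2.30 in WT, a difference of -0.41 ± 0.12 (SE; adjusted p = 0.325, limma). These were the only 2 of the 11 whose groups did not overlap (19.9% of all genes) or whose unadjusted p was under 0.05 (12.5% of all genes). The proteases Ctsb, Lgmn and Ctsl differed by 0.06, -0.03 and 0.07.

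Among 18 further class I genes that were tested, 0 passed the adjusted test, 2 were lower and 1 higher in KO at an unadjusted p under 0.05 (9.38% and 3.12% of all genes), and the median difference was -0.02. H2-Q4, the brightest, read 3.67, 3.73 and 3.71 in KO, against 4.0, 3.97 and 3.98 in WT. Its groups were separate by several times their spread, yet its difference of -0.28 ± 0.06 (SE) had an adjusted p of 0.248 (limma), and its direction was the same on the slide with both genotypes (-0.31) and without WT 3 (-0.28). With median centring it was -0.16. H2-Q6, H2-Q2 and H2-Q7 differed by -0.02, 0.13 and -0.03. Singled out after their values were seen, 4 further class I genes had groups that did not overlap: Cd1d1, which presents lipids to NKT cells, differed by -0.55 and H2-Q1 by -0.51, while H2-M3, which presents formylated peptides, differed by 0.24 and H2-Q10 by 0.25. Together with H2-Q4 that made 3 lower and 2 higher in KO (12.2% and 7.69% of all genes). The 12 genes of class I peptide loading had a median difference of -0.01 and 0 passed. Of these, Tapbpl, Canx, Psmb10 and Calr differed by -0.02, -0.01, 0.18 and -0.21, where Canx on WT 3 was left out as an outlier spot.

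The 13 transcription factors of the MHC promoters had a median difference of -0.01, and 0 passed the adjusted test. Nlrc5, the class I coactivator, read -5.18, -4.75 and -5.16 in KO, against -5.10, -5.35 and -4.68 in WT, and its difference was 0.01 ± 0.20 (SE). Rfx5, a subunit of the factor that binds the X box, differed by -0.15. Among the brightest, the NF-Y subunits Nfyc and Nfyb differed by -0.02 and 0.03, and Irf1 and Irf2 by -0.16 and 0.05. On WT 3 the median deviation of these factors was -0.09, though 3 of the 13 were highest on that array. The median of the 6 class II genes there was 1.31, and any part of the factors in it was not tested.

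Markers of other cell types and regions moved over the same arrays, and their part in the class II values was not tested. Median log2 deviations from the gene means are given for KO 1 to 3 and then WT 1 to 3. The share of all genes highest on WT 3 was not counted, so counts of markers highest there have no background. The 6 class II genes had -0.14, -0.36 and -0.23 in KO, against 0.08, -0.55 and 1.31 in WT. The 11 tested border macrophage markers had -0.24, -0.07 and -0.17 in KO, against 0.21, -0.13 and 0.55 in WT, and 10 of 11 were highest on WT 3. Cd163 of that list was not well above background on all arrays of either group, and the summed signal of the list, in units of the 75th percentile, was 1.93 to 2.39 in KO and 2.14 to 3.13 in WT. The 7 tested B cell markers had -0.17, -0.06 and -0.18 in KO, against -0.01, 0.09 and 0.40 in WT. Their summed signal was 0.397 to 0.471 in KO and 0.460 to 0.631 in WT, and the defining markers Ms4a1 and Blk were not tested for the same reason. The 7 tested dendritic cell markers had 0.13, -0.01 and -0.02 in KO, against 0.09, -0.20 and 0.21 in WT. Their summed signal was 0.722 to 0.779 in KO and 0.631 to 0.802 in WT, and Xcr1, Clec9a and Itgae were well above background on 0 of 6 arrays.

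The 18 microglia markers moved little, with -0.08, 0.08 and -0.02 in KO, against -0.09, -0.04 and 0.14 in WT, although 12 of 18 were highest on WT 3. Their summed signal was 86.9 to 104 in KO and 95.9 to 103 in WT. The 11 monocyte and neutrophil markers varied most among leukocyte lists, with 0.12, -0.38 and -0.60 in KO, against 0.92, -1.15 and 1.06 in WT. S100a9, an alarmin of neutrophils, read 1.56, 0.64 and 0.58 in KO, against 2.24, 0.06 and 2.75 in WT. In this list, as in the class II genes, WT 2 was lowest, but WT 1 lay almost as high as WT 3 (summed signal 2.42 to 4.45 in KO and 1.75 to 9.84 in WT). The 11 tested T and NK cell markers had -0.11, -0.07 and -0.13 in KO, against 0.16, -0.02 and 0.20 in WT (summed signal 2.25 to 2.37 in KO and 2.35 to 2.65 in WT), and Cd3g, Ncr1 and Klrb1c were not well above background on all arrays of either group.

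Regional markers also stood high on WT 3. The 9 tested striatum markers had -0.52, -0.24 and -0.39 in KO, against 0.10, -0.36 and 1.42 in WT, and 9 of 9 were highest on WT 3 (summed signal 16.8 to 22.6 in KO and 18.1 to 62.3 in WT). The 10 choroid plexus markers had 0.14, -0.63 and -0.54 in KO, against 0.74, -0.88 and 1.05 in WT (summed signal 7.92 to 14.5 in KO and 5.15 to 24.8 in WT). The transthyretin gene Ttr, made by the choroid plexus, read 3.65, 2.72 and 2.76 in KO, against 4.03, 1.97 and 4.41 in WT. The 12 markers of meninges and fibroblasts had -0.48, -0.20 and -0.12 in KO, against 0.18, -0.07 and 0.64 in WT, with 12 of 12 highest on WT 3 (summed signal 8.97 to 12.3 in KO and 11.1 to 19.3 in WT). In this list 12 of 12 means were lower in KO (53.8% of all genes). In 6 of 12 the groups did not overlap, lower in KO (12.2% of all genes), and in 0 were they separate and higher. Of the 12, 0 passed limma's adjusted test. Lower means in KO were not particular to this list. They were found for 11 of 11 T and NK cell, 10 of 10 choroid plexus and 9 of 9 striatum markers. The same held for 10 of 11 border macrophage markers, but for only 9 of 18 microglia and 4 of 8 neuron markers. Groups were separate and lower in KO for 4 T and NK cell, 2 choroid plexus, 2 striatum and 2 border macrophage markers. The 8 neuron markers and the 8 astrocyte markers had medians within 0.09 of 0 on all arrays. The 12 endothelium markers reached 0.17 on WT 3, and the 8 oligodendrocyte markers had 0.17, -0.57 and -0.15 in KO, against 0.11, 0.68 and -0.23 in WT.

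**Figure D4:**
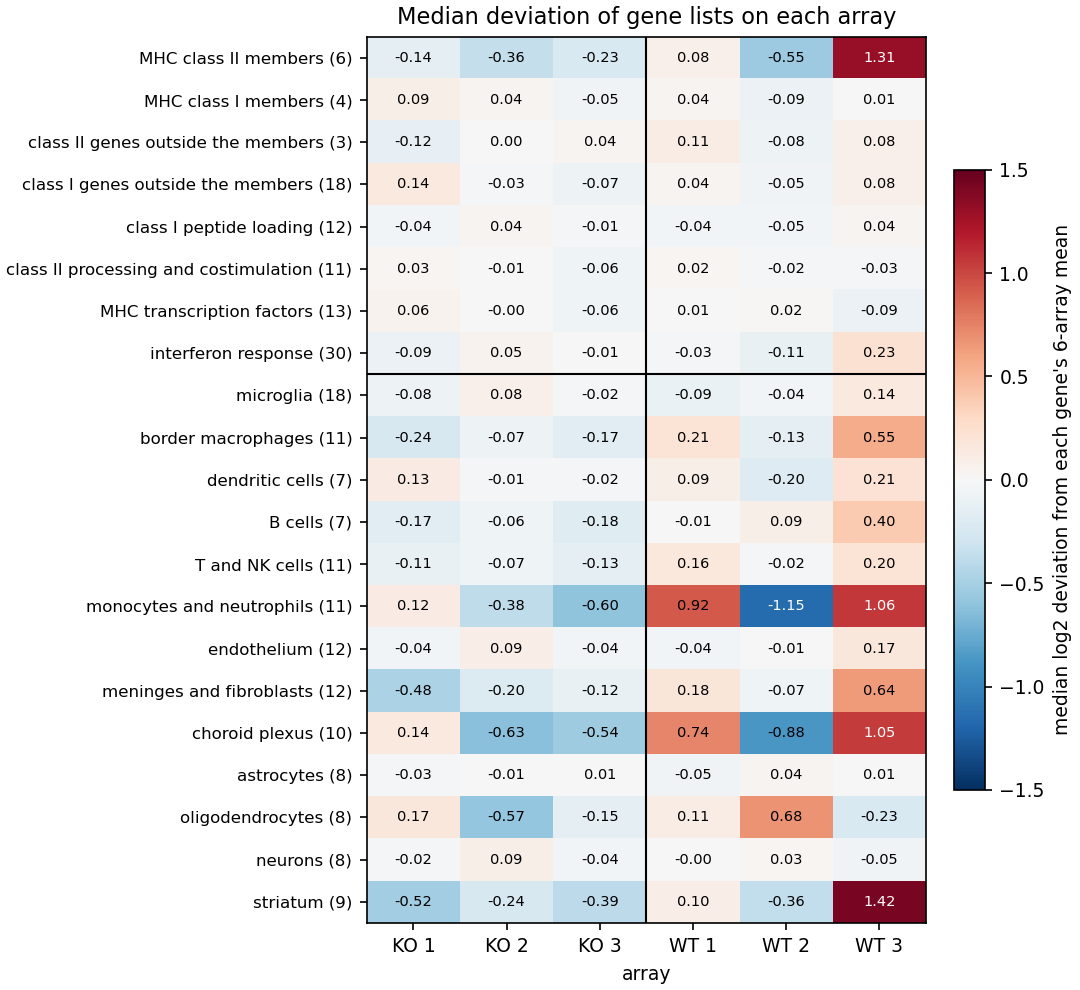
Median log2 deviation of each gene list from the gene means over the 6 arrays (colour and printed value), with lists as rows (genes tested in brackets) and arrays as columns, KO left of WT. The class II genes reach 1.31 on WT 3, where striatum, choroid plexus, monocyte and neutrophil, meningeal and border macrophage lists are also above their means, while class I, peptide loading and transcription factor lists stay near 0.

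The genes whose pattern was most like the mean of H2-Aa, H2-Ab1, H2-Eb1 and Cd74 were sought among 2136 genes that were well above background on all arrays and ranged over at least 1 on the log2 scale. Over the 6 arrays Pearson's r was above 0.9 for 304 of them, the genes that form the mean included, so a high r was common. The listed MHC genes and symbols starting with Gm or ending in Rik were then left out. Of the rest, the 8 highest were Xkrx, Otop3, Penk, Tafa2, Thsd7a, Ifi27l2a, Cldn3 and Cartpt. Their r was 0.986 to 0.990, and 0.871 to 0.964 without WT 3. Penk, the enkephalin precursor of striatal neurons and a member of the striatum list, read 3.18, 3.18 and 3.01 in KO, against 3.40, 2.66 and 4.73 in WT. Ifi27l2a, an interferon-inducible gene, read -1.94, -2.15 and -1.91 in KO, against -1.88, -2.28 and -0.74 in WT. Cldn3, a claudin of epithelial tight junctions, read -6.90, -7.28 and -7.31 in KO, against -6.24, -7.60 and -4.83 in WT. Cartpt, a neuropeptide precursor, read -1.37, -1.33 and -1.24 in KO, against -1.04, -1.60 and 0.75 in WT. These points share array, scaling and the high value of WT 3, and no p is given for them.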

How the data were processed

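Brain RNA of 3 KO and 3 WT samples was hybridised to 1-colour Agilent arrays. The authors deposited 1 scanner file per array, made with Agilent Feature Extraction 12.1.1.1 per the submitters' processing notes. Per the file headers, each deposited value is a linear intensity from which Feature Extraction had subtracted the background, and probe positions are in mm9. Signals were turned to log2, minus the 75th percentile of the non-control probes of the array. Control spots (1377) and spots marked as outliers were left out, and spots of a probe were averaged. Tested were 31954 of 39429 probes, those with at least 2 values per group whose signal was well above background throughout KO, WT or both. The brightest probe stood for a gene, and unnamed probes counted singly, which gave 23999 genes. KO was compared with WT by limma 3.58.1 in R 4.3.3, two-sided, with no covariate and Benjamini-Hochberg adjustment at 0.05. The test was checked on simulated data with independent noise of equal spread on all arrays. That simulation held no slide effect and no array standing apart, so it does not cover these features of the data. With 3 samples against 3, an exact permutation test cannot go below p = 0.1, and the number of arrays limits precision.

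The MHC genes and all lists were chosen with earlier results of these data known. All 10 MHC genes are named. From other lists the text names genes past the threshold and otherwise up to 4 of the brightest, plus the regulators Nlrc5 and Rfx5, the tested class II genes and a few examples, which were picked afterwards. Gene symbols are those of the array, updated by RefSeq accession for 29504 probes. Alternatives covered background correction, scaling, filters, choice of probe, slide, replicate number and leaving out each array.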

Additional observations from a re-analysis of the deposited data

How the results depend on the processing

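Across the 18 alternatives, 0 genes passed an adjusted p of 0.05 with limma in 17, as in the reported analysis (2999 genes at an unadjusted p under 0.05; 1024 to 3977 over the alternatives). Leaving out single arrays gave 0 to 77 genes, and the 77 came without KO 1, with 61 higher and 16 lower in KO. No MHC gene passed under any alternative, and their lowest adjusted p was 0.299, for B2m with median centring. That scaling moved the median of all genes to 0.10 and the class I median to 0.15, while the class I median was -0.02 to 0.05 when single arrays were left out. The class II median ran from -0.97 without WT 2 to -0.02 without WT 3. Deviations of same-numbered KO and WT arrays correlated at -0.03, -0.14 and -0.11, and those of unlike-numbered arrays at -0.01 to 0.12. Deviations sum to 0 within a group, so these values cannot show whether samples were handled in pairs. With the replicate number as a block 0 genes passed and 2571 had an unadjusted p under 0.05. Slide as a fixed block left 1313 and as a random block 3390.

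H2-Aa, H2-Ab1, H2-Eb1 and Cd74 kept a lower mean in KO under all alternatives, and H2-T23 and B2m a higher one. Without WT 3, however, the differences were -0.086 for H2-Aa, -0.027 for H2-Ab1, -0.0056 for H2-Eb1 and -0.027 for Cd74. H2-T23 was then 0.019, and each of these 5 was smaller in size than its SE. B2m was 0.019 on the slide with both genotypes. Directions of 4 genes near 0 turned, and the cause was not tested. H2-DMa was -0.010 with normexp, and -0.051 to 0.11 when single arrays were left out. Ciita was -0.019 with normexp, and -0.016 to 0.070 when single arrays were left out. H2-K1 was 0.086 with median centring, 0.023 with slide as a fixed block and on the slide with both genotypes, and -0.12 to 0.037 when single arrays were left out. H2-D1 was 0.057 with median centring and 0.11 with slide as a fixed block and on the slide with both genotypes, and -0.15 to -0.0099 when single arrays were left out. With slide as a random block H2-K1 was -0.036 and H2-D1 -0.074.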

Other observations

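Of 32 interferon response genes, 30 were tested and 0 passed limma's adjusted test. At an unadjusted p under 0.05, 1 was lower and 0 were higher in KO (9.38% and 3.12% of all genes). The groups did not overlap in 1 gene lower and 1 gene higher in KO (12.2% and 7.69% of all genes). The median difference was -0.01. The interferon gamma receptor genes Ifngr1 and Ifngr2, through which class II expression is known to be induced, differed by -0.01 and 0.08, and the type I receptor gene Ifnar1 by 0.08. Stat2, a transcription factor of the type I response, read 0.21, 0.23 and 0.19 in KO, against 0.26, 0.20 and 0.66 in WT. The median deviation of the list was -0.09, 0.05 and -0.01 in KO, against -0.03, -0.11 and 0.23 in WT. Ifng itself and Cxcl9 were not well above background on all arrays of either group.

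The mean of H2-K1, H2-D1 and B2m, which leaves out the non-classical H2-T23 (range 0.53 over the arrays, lowest on WT 3), lay between -0.11 and 0.06 of its own mean. Over the 6 arrays H2-K1 correlated with this mean at r = 0.94, H2-D1 at 0.64 and B2m at 0.35. Each gene is itself part of the mean, which tends to raise r. Even so, the 3 genes shared little of a common order of arrays. Genes most like this mean were sought among 11691 genes with a range of at least 0.3. With MHC genes and Gm and Rik symbols left out as above, they were Obox1, Sult1c2, Spata31d1b, Trappc3l, Dhx9, Grem1, Scgb3a1 and Trhr2. Their r was 0.964 to 0.987.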
